A study of Mus musculus with 12 samples.

Results

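The genes described here are the enzymes that make, use and recycle glutathione and thioredoxin, the superoxide dismutases, and Nfe2l2, Keap1 and Nqo1 of the NRF2 response, in the fat of obese mice. They were taken by symbol from the annotation of the array: the glutathione S-transferase (Gst and Mgst), glutathione peroxidase (Gpx), peroxiredoxin (Prdx), thioredoxin (Txn), superoxide dismutase (Sod) and glutaredoxin (Glrx) families, without Txnip, and Gclc, Gclm, Gss, Gsr, Nqo1, Nfe2l2 and Keap1. This gave 71 genes, on 79 probe sets, of 21651 genes measured. RNA of white (WAT) and brown (BAT) adipose tissue was measured on Affymetrix gene ST arrays, 3 of them in each of 4 groups. The groups were WAT of triple mutants, WAT of ob/ob mice, BAT of triple mutants and BAT of ob/ob mice. All mice were male C57, 4 months of age, fed chow, and carried ob/ob, which removes the hormone leptin. The triple mutants (ob/ob/Cidea-/-/Cidec-/-) were in addition without Cidea and Cidec, whose proteins sit on lipid droplets. The controls, being ob/ob, are themselves obese. The white depot is not named in the labels, and nothing in them says whether the 3 arrays of a group are 3 animals. A p-value here thus reflects the spread among these samples alone, and that spread may be technical.

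Glutathione is a small thiol that glutathione S-transferases attach to electrophiles such as lipid aldehydes, and that glutathione peroxidases spend to reduce peroxides. Thioredoxin, kept reduced by thioredoxin reductase, drives the peroxiredoxins, and superoxide dismutases turn superoxide into the hydrogen peroxide that these systems remove, with separate enzymes in mitochondria and cytosol. The transcription factor NRF2 (Nfe2l2), held for degradation by KEAP1 until electrophiles or oxidants free it, is known to switch on many of these genes. In fat, glutathione S-transferase A4 is known for clearing 4-hydroxynonenal, an aldehyde made from oxidised lipids.

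All levels are log2 RMA values, and levels of different genes cannot be set against each other. Between 19.5% and 32.3% of genes per array lay above the highest of 45 antigenomic control probe sets (7.40 to 8.13), and 46 of the 71 genes had at least 1 group mean above it. Where a group lies below this control, a log2 change is no estimate of the fold. Of 10 adipocyte markers, 9 lay above it in ob/ob WAT and 10 in each other group. Of 10 brown fat markers, 6 lay above it in triple mutant BAT, 5 in ob/ob BAT, 5 in triple mutant WAT and 1 in ob/ob WAT. Cidea read 8.42 to 10.03 in triple mutant WAT, against 4.86 to 5.55 in ob/ob WAT, and 11.29 to 11.39 in triple mutant BAT, against 11.39 to 11.51 in ob/ob BAT. Cidec read 11.04 to 11.25 in triple mutant WAT, against 11.25 to 11.87 in ob/ob WAT, and 10.79 to 10.83 in triple mutant BAT, against 10.59 to 11.12 in ob/ob BAT. Neither signal checks the genotype labels, since the position of the probes against the deletions is not stated in the sources.

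Markers of other cell types differed between the genotypes as well. Rose and fell mean called higher or lower in triple mutants (limma, adjusted p under 0.05 over all genes). Over all genes 17.6% were called higher and 16.7% lower in WAT, and 10.4% and 6.97% in BAT. The mean level of 15 macrophage markers was 7.07 to 7.32 in triple mutant WAT, against 10.44 to 10.92 in ob/ob WAT, and 6.67 to 6.93 in triple mutant BAT, against 7.98 to 9.20 in ob/ob BAT. All 15 fell in WAT and 14 of 15 fell in BAT. Above the highest control were 5 of the 15 in triple mutant WAT, all 15 in ob/ob WAT, 1 in triple mutant BAT and 9 in ob/ob BAT. Of the 10 adipocyte markers 9 rose in WAT and 2 in BAT, with a mean level of 11.91 to 11.98 in triple mutant WAT, against 10.25 to 11.12 in ob/ob WAT, and 11.76 to 11.86 in triple mutant BAT, against 11.37 to 11.42 in ob/ob BAT. Of 8 fibroblast markers 6 fell in WAT and 5 in BAT, of 6 mast cell markers 5 fell in WAT, and of 7 erythroid markers 6 rose in WAT and 2 in BAT. Of 10 brown fat markers 6 rose in WAT (median 2.37) and 2 in BAT, with a mean level of 8.12 to 8.67 in triple mutant WAT, against 5.85 to 6.27 in ob/ob WAT, and 9.35 to 9.67 in triple mutant BAT, against 8.71 to 8.79 in ob/ob BAT. Of 8 endothelial markers 4 rose in WAT, and in BAT 1 rose and 2 fell. Of 5 white fat markers 2 rose and 1 fell in WAT, and 2 fell in BAT. In ob/ob WAT, array 1 had the lowest adipocyte level (10.25, against 10.86 and 11.12 on the other arrays) and the highest macrophage level (10.92, against 10.73 and 10.44). Fewer cells of a type and less RNA per cell cannot be told apart in these samples, and the part of the marker shifts in the results that follow was not tested.

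**Figure D1:**
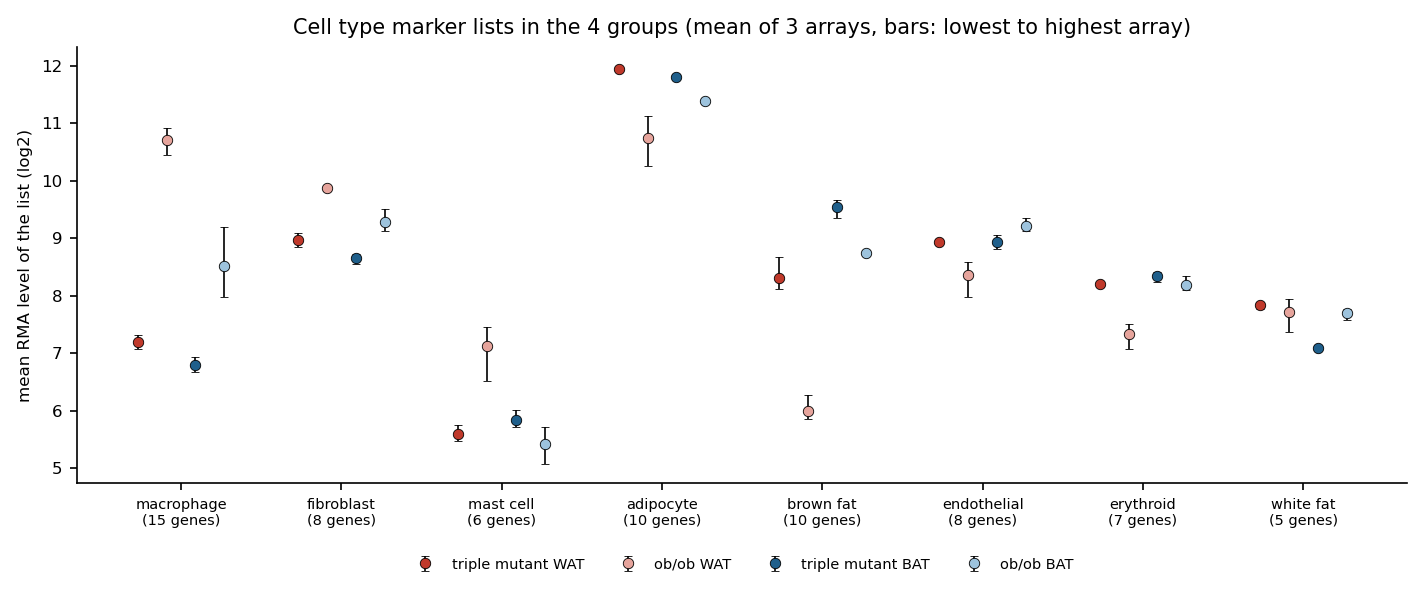
Mean log2 RMA level (y axis) of 8 lists of cell type markers (x axis, with the number of genes) in the 4 groups. Points are means of 3 arrays and bars run from the lowest to the highest array. Macrophage markers averaged 7.19 in triple mutant WAT, against 10.70 in ob/ob WAT, and adipocyte markers averaged 11.95 against 10.74.

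The first comparison asked which of these enzymes differ between the genotypes in each fat tissue. In triple mutant WAT, 32 of the 71 genes were called higher than in ob/ob WAT and 11 lower (limma, adjusted p under 0.05 over all genes), where 17.6% and 16.7% of all genes were called higher and lower (34.3% in all). In BAT 16 were called higher and 2 lower, where 10.4% and 6.97% of all genes were (17.4% in all). The BAT counts depend on the scaling of the arrays: they were 10 and 4 with quantile normalization over all arrays, 9 and 3 with quantile normalization within each tissue, and 22 and 2 with array medians subtracted. The median log2 change of the 71 genes was 0.35 in WAT and 0.17 in BAT, beside 0.04 and -0.03 over all genes. In WAT 37 genes had every triple mutant array above every ob/ob array (24.9% of all genes did) and 12 every one below (21.8%), and in BAT 30 (18.2%) and 5 (17.3%). Without ob/ob WAT array 1, 27 genes were called higher and 9 lower in WAT. Of the 43 calls in WAT 35 held under every alternative run, and those of Gclm, Gstm1, Gstm3, Gstt1, Gstt4, Prdx2, Prdx6-ps1 and Txnl4b did not. Of the 18 in BAT 7 held (Gsta4, Gstm4, Gsto1, Gstz1, Glrx5, Txnrd2 and Txndc12). The BAT calls of Gss, Sod2, Prdx2, Prdx3, Prdx4, Mgst2, Mgst3, Glrx3, Txnrd3, Txnl4b and Txndc9 were each lost under at least 1 alternative, and the count of higher genes in BAT was 8 without triple mutant BAT array 2 and 9 without ob/ob BAT array 1 or 3.

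The group means compared in WAT and in BAT share no array, but both tests use a common estimate of each gene's spread from all 12 arrays. Same-numbered WAT and BAT arrays of a genotype also deviated together (r over genes 0.15 to 0.22). The 2 comparisons are thus not independent. Called higher in both were 14 genes, which is 43.8% of those higher in WAT and 87.5% of those higher in BAT, where over all genes the shares were 38% and 64.5%. They were Gsta4, Gstm4, Gsto1, Gstz1, Mgst2, Glrx3, Glrx5, Prdx2, Prdx3, Sod2, Txnrd2, Txnrd3, Txndc12 and Txnl4b. Prdx4 was lower in both, Mgst3 was called in opposite directions, and 26 genes were called in neither.

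**Figure D2:**
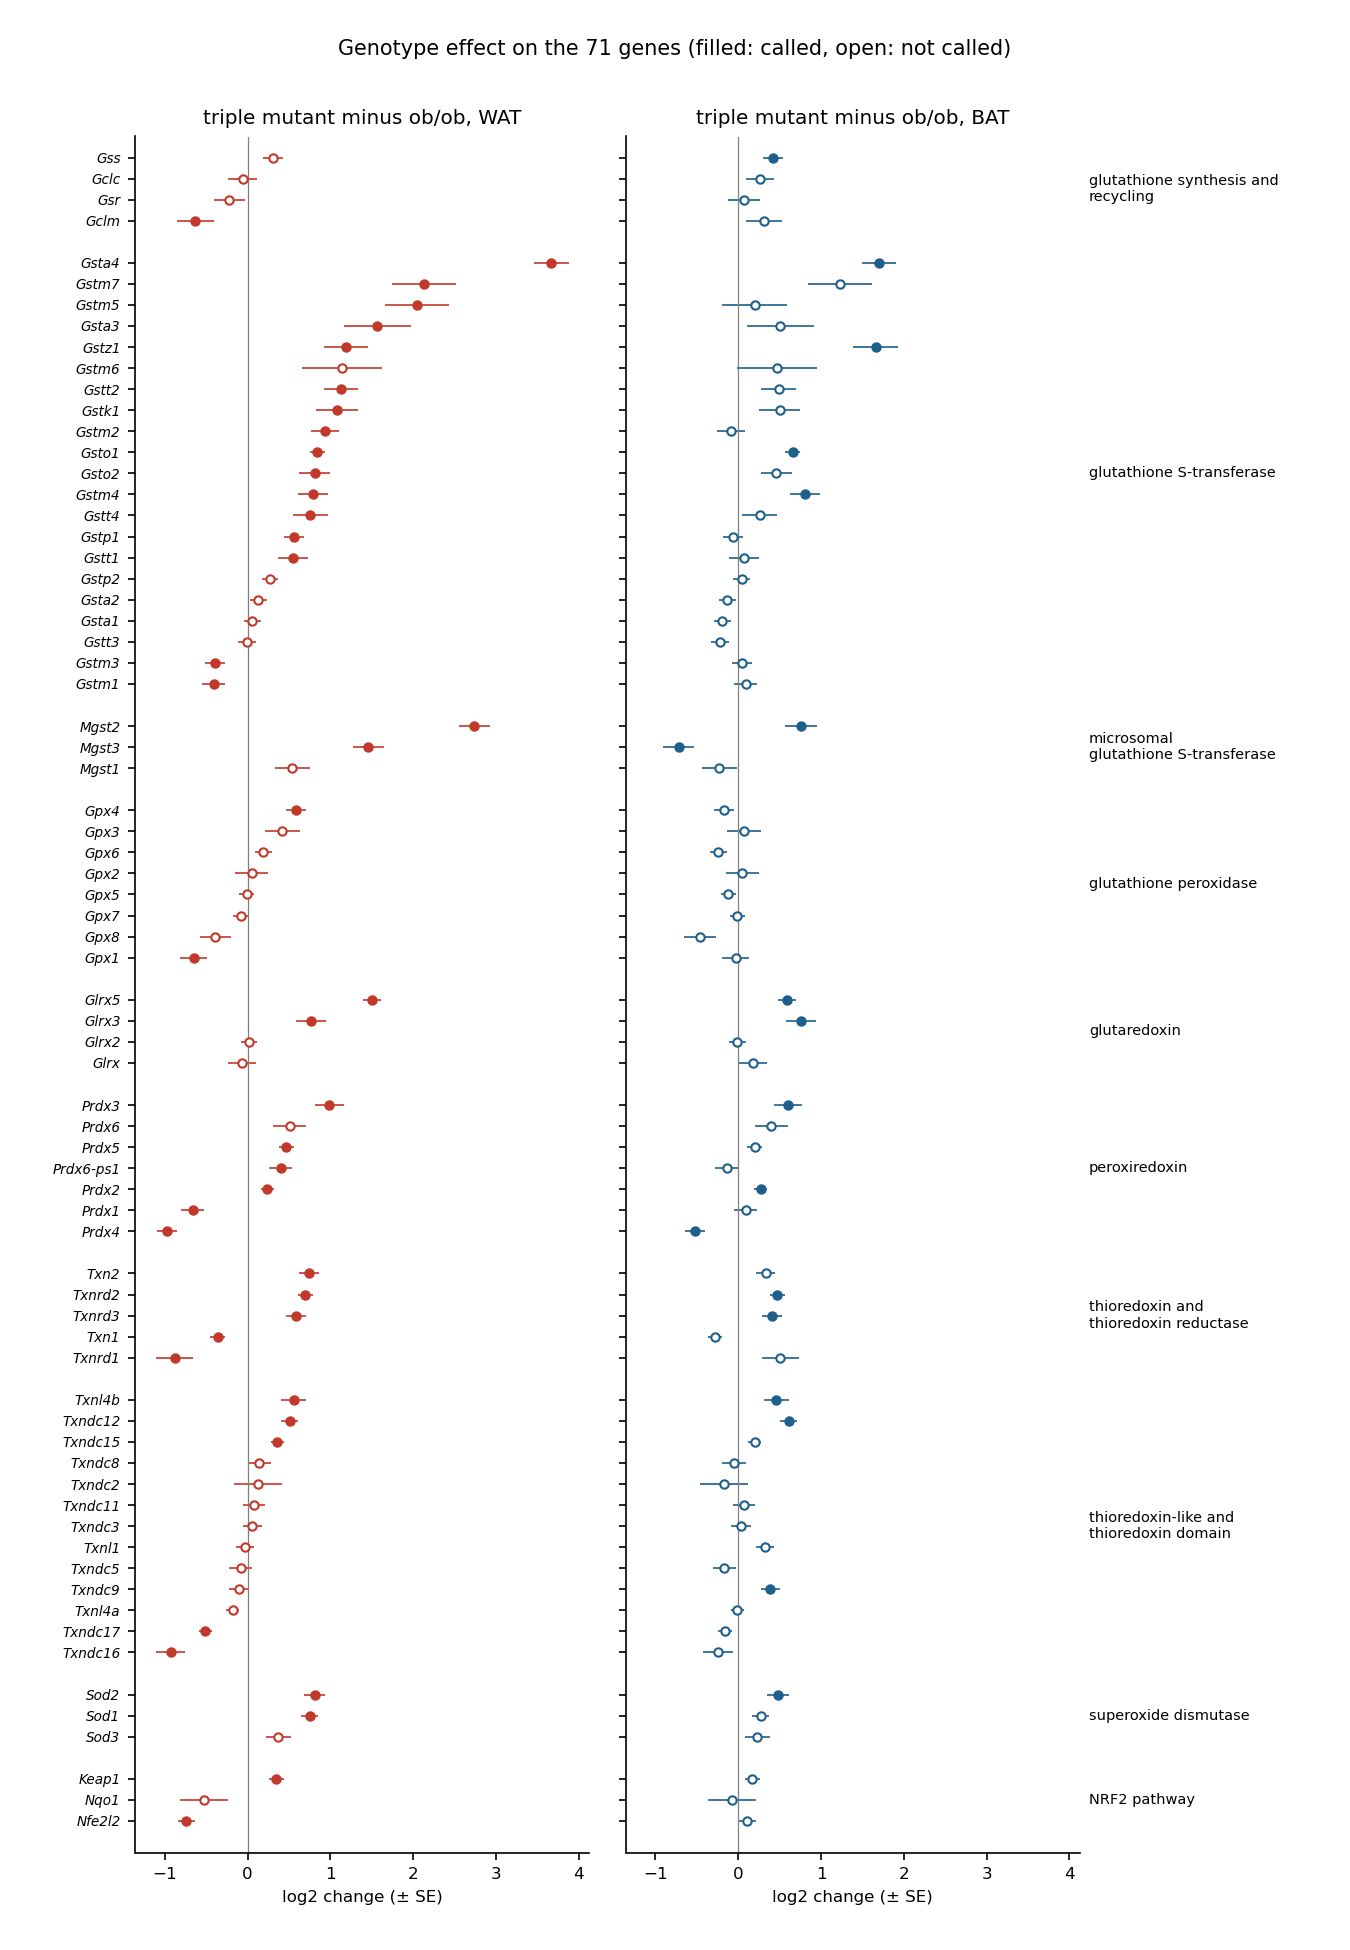
Log2 change (triple mutant minus ob/ob, x axis, bars: standard error) of each of the 71 genes in WAT (left) and BAT (right), grouped by role and sorted within each role by the WAT value. Filled points passed the test, and the higher genes in WAT are led by Gsta4 (3.67), Mgst2 (2.74) and Gstm7 (2.13), while the lower ones reach Prdx4 (-0.97).

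Of the 4 enzymes that make and regenerate glutathione 1 fell in WAT and 1 rose in BAT, where 34.3% and 17.4% of all genes were called in either direction. Gclm, the modifier subunit of the enzyme for the rate-limiting step of glutathione synthesis (chromosome 3, 121948510 to 121969566, build NCBIM37, as for all gene positions here), read 9.25, 9.58 and 9.37 in triple mutant WAT, against 10.64, 10.02 and 9.44 in ob/ob WAT. The groups overlap, with ob/ob array 3 among the triple mutants, and the call (log2 change -0.63, SE 0.22, adjusted p = 0.0481) was lost in 16 of 22 alternatives. Without ob/ob WAT array 1 the change was -0.33 (adjusted p = 0.166). Gclc, the catalytic subunit, read 8.72, 8.54 and 8.25 in triple mutant WAT, against 8.97, 8.54 and 8.18 in ob/ob WAT, so the groups overlap, and it did not pass the test (-0.06, adjusted p = 0.839). Gsr, glutathione reductase, which restores glutathione from its oxidised form, had changes of -0.22 in WAT and 0.07 in BAT and passed in neither. Gss, glutathione synthetase, was the 1 gene of these 4 called in BAT, at 7.90, 8.26 and 7.82 in triple mutants, against 7.60, 7.39 and 7.73 in ob/ob. These groups do not overlap (0.42, SE 0.12, adjusted p = 0.0339), but every Gss group mean lies below the highest control. In WAT the change of Gss was 0.31 (adjusted p = 0.0721). For Gclc, Gclm and Gsr too, every triple mutant BAT array lies above every ob/ob BAT array, as for 18.2% of all genes. Gclm read 8.89, 9.01 and 8.80 in triple mutant BAT, against 8.54, 8.66 and 8.56 in ob/ob BAT. The BAT changes of Gclm (0.31, adjusted p = 0.383) and Gclc (0.26, adjusted p = 0.343) did not pass. The ob/ob BAT means of Gclc and Gsr lie below the highest control.

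Gsta4, a glutathione S-transferase, had the highest log2 change of the 71 genes in each tissue. Of 21 such transferases, not counting the microsomal ones, 14 rose and 2 fell in triple mutant WAT (median log2 change 0.81), and 4 rose in BAT (median 0.26). Over all genes 17.6% were called higher and 16.7% lower in WAT, and 10.4% higher in BAT. Gsta4, the transferase of lipid aldehydes (chromosome 9, 78039789 to 78057156), read 9.73, 9.65 and 10.02 in triple mutant WAT, against 5.61, 6.62 and 6.14 in ob/ob WAT, and 9.59, 9.67 and 9.69 in triple mutant BAT, against 7.71, 8.22 and 7.93 in ob/ob BAT. The genotypes do not overlap in either tissue. The triple mutant levels of WAT and BAT overlap each other, whereas ob/ob WAT lies below ob/ob BAT, and both ob/ob means are below the highest control. The log2 changes were 3.67 in WAT (SE 0.21, adjusted p = 1.42e-06), beside 1.70 in BAT (SE 0.21, adjusted p = 0.000713).

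**Figure D3:**
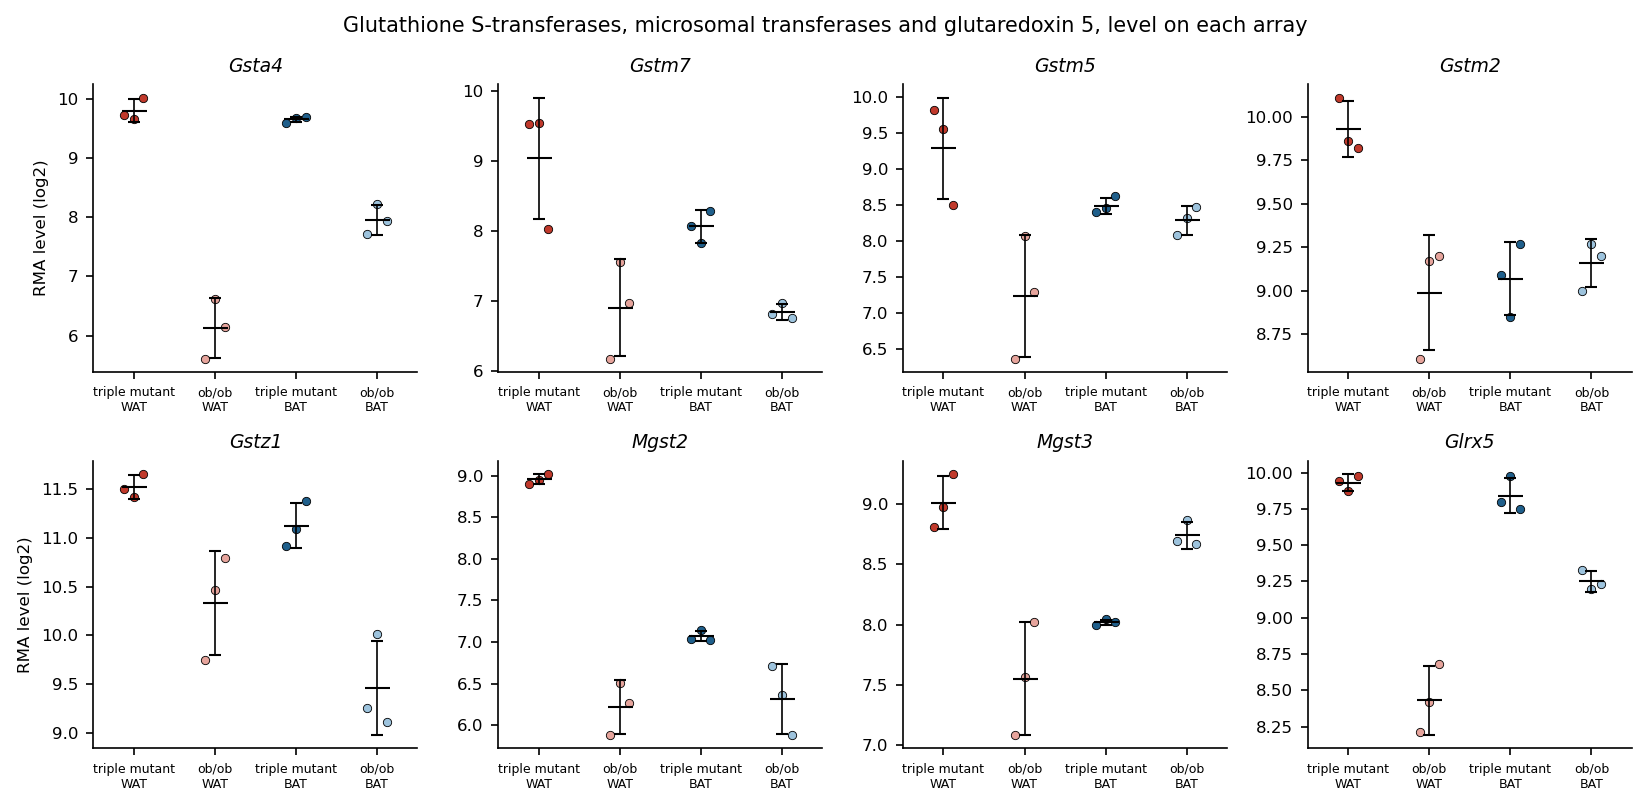
Log2 RMA level (y axis) on each of the 12 arrays (points) for 8 genes in the 4 groups (x axis), with the mean and SD of 3 arrays as bars. Gsta4, Gstm7, Mgst2 and Glrx5 stand higher on all triple mutant arrays of both tissues, although the BAT change of Gstm7 missed the threshold, and Mgst3 is higher in triple mutant WAT (8.81 to 9.25, against 7.08 to 8.02 in ob/ob WAT) but lower in triple mutant BAT (8.0 to 8.05, against 8.67 to 8.87 in ob/ob BAT).

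The mu class, a cluster of transferase genes on chromosome 3, was split in WAT. Gstm7 read 9.52, 9.54 and 8.03 in triple mutant WAT, against 6.17, 7.55 and 6.96 in ob/ob WAT (log2 change 2.13, SE 0.39, adjusted p = 0.00124). In BAT it read 8.07, 7.83 and 8.28 in triple mutants, against 6.81, 6.96 and 6.75 in ob/ob, at a change of 1.23 that missed the threshold (adjusted p = 0.053). It passed in 7 of 22 alternatives, such as the BAT arrays alone (adjusted p = 0.00321) or without ob/ob WAT array 1 (adjusted p = 0.0336), with changes of 1.11 to 1.34 over all 22. The genotypes do not overlap for Gstm7 in either tissue, and all groups but triple mutant WAT have means below the highest control. Gstm5 read 9.82, 9.56 and 8.50 in triple mutant WAT, against 6.37, 8.07 and 7.29 in ob/ob WAT (2.05, SE 0.39, adjusted p = 0.00152). Its mean in ob/ob WAT lies below the highest control. In BAT Gstm5 overlapped, at 8.40, 8.46 and 8.62 in triple mutants, against 8.08, 8.32 and 8.48 in ob/ob (0.20, adjusted p = 0.775). Triple mutant WAT array 3 was the lowest of its group for both genes. Gstm2 rose by 0.94 and Gstm4 by 0.79 in WAT, and Gstm4 by 0.81 in BAT.

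Gstm1, an abundant mu transferase, went the other way in WAT, at 10.44, 10.51 and 10.23 in triple mutants, against 10.68, 10.76 and 10.97 in ob/ob. These groups do not overlap, but the call (-0.41, SE 0.14, adjusted p = 0.0456) was lost in 10 of 22 alternatives. Gstm3 also fell (-0.39, adjusted p = 0.0262), through a probe set on chromosome 10, while the probe set at the gene's own place on chromosome 3 gave -0.11 (adjusted p = 0.726). Gstm6 lay below the highest control in all groups and did not pass (1.14 in WAT, adjusted p = 0.0895). Probe sets of such near-identical genes can bind each other's transcripts, so values within the mu, alpha and pi classes may be shared between neighbours.

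Transferases of other classes rose too. Gstz1, which as maleylacetoacetate isomerase acts in tyrosine breakdown (chromosome 12, 88488668 to 88505673), read 11.50, 11.42 and 11.65 in triple mutant WAT, against 9.75, 10.46 and 10.79 in ob/ob WAT, and 10.91, 11.09 and 11.37 in triple mutant BAT, against 9.26, 10.01 and 9.12 in ob/ob BAT. All triple mutant arrays lie above all ob/ob arrays of their tissue, with changes of 1.19 in WAT (SE 0.27, adjusted p = 0.00444), beside 1.66 in BAT (SE 0.27, adjusted p = 0.00235). Gsto1, an omega transferase that also reduces dehydroascorbate, rose by 0.84 in WAT and 0.66 in BAT (SE 0.09 each). Gsta3 rose by 1.57, Gstt2 by 1.13, Gstk1, found in mitochondria and peroxisomes, by 1.08, Gsto2 by 0.81, Gstt4 by 0.76, Gstp1 by 0.56 and Gstt1 by 0.55 in WAT, with none of these 7 called in BAT. In BAT limma put Gstt2 (0.49) and Gsto2 (0.46) past an unadjusted p under 0.05, and the groups of Gstk1 do not overlap (0.50). Of these 7 only Gstp1 had a genotype effect called different between the tissues. Without ob/ob WAT array 1 the change of Gstk1 was 0.71, and the calls of Gstt1 and Gstt4 were lost (adjusted p = 0.145 and 0.0527). Gsto2, Gstt2 and Gstt4 lay below the highest control in all groups. Gsta1, Gsta2, Gstt3 and Gstp2 were called in neither tissue.

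The microsomal transferases, membrane proteins that also act on lipid peroxides and leukotrienes, include Mgst2, which rose in both tissues, and Mgst3, which went opposite ways. Mgst2, which can make leukotriene C4 (chromosome 3, 51465115 to 51486597), read 8.90, 8.95 and 9.02 in triple mutant WAT, against 5.88, 6.51 and 6.27 in ob/ob WAT. In BAT it read 7.04, 7.14 and 7.03 in triple mutants, against 6.71, 6.36 and 5.88 in ob/ob. The genotypes do not overlap in either tissue, and triple mutant WAT is the one group with a mean above the highest control. The changes were 2.74 in WAT (SE 0.19, adjusted p = 2.75e-06), beside 0.76 in BAT (SE 0.19, adjusted p = 0.0196). Mgst3 (chromosome 1, 169302515 to 169323928) read 8.81, 8.98 and 9.25 in triple mutant WAT, against 7.08, 7.56 and 8.02 in ob/ob WAT, and 8.0, 8.05 and 8.02 in triple mutant BAT, against 8.69, 8.87 and 8.67 in ob/ob BAT. Its arrays do not overlap in either tissue, and the direction is opposite: 1.46 in WAT (SE 0.19, adjusted p = 0.000118), beside -0.72 in BAT (SE 0.19, adjusted p = 0.0242). The lower group of each tissue, ob/ob WAT and triple mutant BAT, has a mean of Mgst3 below the highest control. Mgst1, the abundant liver form, did not pass (0.54 in WAT, adjusted p = 0.0667, and -0.23 in BAT).

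Of 8 glutathione peroxidases, 1 rose and 1 fell in WAT and none was called in BAT, where 2 passed at an unadjusted p under 0.05 (Gpx6 and Gpx8). Over all genes 34.3% were called in either direction in WAT and 17.4% in BAT. Gpx4, which reduces lipid peroxides within membranes, read 10.18, 10.02 and 10.01 in triple mutant WAT, against 9.25, 9.47 and 9.74 in ob/ob WAT, with no overlap (0.59, SE 0.12, adjusted p = 0.0021). In BAT it read 10.58, 10.52 and 10.57 in triple mutants, against 10.71, 10.62 and 10.87 in ob/ob. These arrays do not overlap either, with the triple mutants lower, but the change of -0.17 did not pass (adjusted p = 0.346). These values come from a probe set at chromosome 10, 45595096 to 45595893, away from the gene, and the probe set at chromosome 10, 79516233 to 79519184, gave 0.56 in WAT and -0.17 in BAT. Gpx1, the cytosolic and mitochondrial peroxidase of most cells, read 10.60, 10.50 and 10.06 in triple mutant WAT, against 11.07, 11.05 and 10.99 in ob/ob WAT. Every triple mutant array lies below the ob/ob arrays, which lie close together (-0.65, SE 0.16, adjusted p = 0.00699), while in BAT the change was -0.03. Gpx3, the secreted peroxidase, had changes of 0.42 in WAT (adjusted p = 0.147, and 0.27 without ob/ob WAT array 1) and 0.07 in BAT. Gpx2, Gpx5, Gpx6 and Gpx7 lay below the highest control in all groups, and Gpx8, of the endoplasmic reticulum, had -0.39 in WAT and -0.46 in BAT without passing.

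Among the glutaredoxins, the ones that help to carry iron-sulphur clusters rose in both tissues. Glrx5, the mitochondrial one (chromosome 12, 106270879 to 106280438), read 9.94, 9.87 and 9.98 in triple mutant WAT, against 8.21, 8.42 and 8.68 in ob/ob WAT, and 9.80, 9.98 and 9.75 in triple mutant BAT, against 9.33, 9.20 and 9.23 in ob/ob BAT. The genotypes do not overlap, and ob/ob WAT stands below the other 3 groups. The changes were 1.5 in WAT (SE 0.11, adjusted p = 4.46e-06), beside 0.59 in BAT (SE 0.11, adjusted p = 0.0055). Glrx3, a cytosolic one, rose by 0.77 in WAT and 0.76 in BAT, all group means being below the highest control. Glrx, the classical cytosolic glutaredoxin, and Glrx2, a mitochondrial one, had changes of -0.07 and 0.02 in WAT and did not pass.

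Of 7 peroxiredoxins, 4 rose and 2 fell in WAT, and 2 rose and 1 fell in BAT. Over all genes 17.6% were called higher and 16.7% lower in WAT, and 10.4% and 6.97% in BAT. Prdx3, the mitochondrial peroxiredoxin (chromosome 19, 60939971 to 60950417), read 10.67, 10.82 and 11.41 in triple mutant WAT, against 9.72, 10.13 and 10.07 in ob/ob WAT, and 11.18, 11.23 and 11.41 in triple mutant BAT, against 10.54, 10.77 and 10.71 in ob/ob BAT. No array of one genotype reaches the other in either tissue, with changes of 0.99 in WAT (SE 0.17, adjusted p = 0.000879), beside 0.60 in BAT (SE 0.17, adjusted p = 0.036). Prdx5, of mitochondria, peroxisomes and cytosol, rose by 0.47 in WAT (adjusted p = 0.00164), with 0.20 in BAT (adjusted p = 0.163). Prdx2, a cytosolic one abundant in red cells, rose by 0.24 in WAT and 0.27 in BAT through a probe set on chromosome 1, and its probe set on chromosome 8, where the gene lies, gave 0.27 and 0.25 with adjusted p of 0.0546 and 0.106.

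Prdx1, the main cytosolic peroxiredoxin, read 11.17, 11.25 and 11.19 in triple mutant WAT, against 12.18, 11.90 and 11.51 in ob/ob WAT. The triple mutant arrays lie close together below a spread of ob/ob arrays (-0.66, SE 0.14, adjusted p = 0.00257), and without ob/ob WAT array 1 the change was -0.50 (adjusted p = 0.00773). Its probe set lies on chromosome 16, and that on chromosome 4, where the gene lies, gave -0.86 (adjusted p = 0.00314). Prdx4, which acts in protein folding in the endoplasmic reticulum (chromosome X, 151758209 to 151773010), read 6.05, 6.13 and 6.28 in triple mutant WAT, against 7.16, 7.21 and 7.0 in ob/ob WAT, and 5.46, 5.71 and 5.88 in triple mutant BAT, against 6.31, 6.23 and 6.05 in ob/ob BAT. The genotypes do not overlap, although all group means are below the highest control (-0.97 in WAT, SE 0.12, adjusted p = 7.61e-05, and -0.52 in BAT, adjusted p = 0.0127). Prdx6 had 0.51 in WAT (adjusted p = 0.0638). Prdx6-ps1, below the highest control throughout, was called at 0.40 in WAT with overlapping groups, and the call was lost in 11 of 20 alternatives (adjusted p of up to 0.154).

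In the thioredoxin system mitochondrial Txn2 and Txnrd2 rose in WAT, and cytosolic Txn1 and Txnrd1 fell. Txn2, mitochondrial thioredoxin, read 9.81, 9.66 and 10.06 in triple mutant WAT, against 8.98, 9.06 and 9.28 in ob/ob WAT, with no overlap (0.74, SE 0.12, adjusted p = 0.000595), and its change in BAT was 0.33 (adjusted p = 0.0857). Txnrd2, the mitochondrial reductase, read 7.35, 7.17 and 7.34 in triple mutant WAT, against 6.46, 6.60 and 6.72 in ob/ob WAT, below the highest control throughout (0.70 in WAT, adjusted p = 0.000121, and 0.47 in BAT, adjusted p = 0.0056). Both genes are therefore higher on every triple mutant WAT array. Txn1, the cytosolic thioredoxin, read 12.35, 12.33 and 12.28 in triple mutant WAT, against 12.81, 12.66 and 12.59 in ob/ob WAT (-0.36, SE 0.09, adjusted p = 0.0082), with -0.28 in BAT (adjusted p = 0.0559). The genotypes do not overlap for Txn1 in either tissue, and a second probe set for it, on chromosome 1, gave -0.61 in WAT and -0.27 in BAT.

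Txnrd1, the cytosolic reductase (chromosome 10, 82274823 to 82360469), read 8.03, 8.02 and 7.99 in triple mutant WAT, against 9.53, 8.78 and 8.38 in ob/ob WAT, and 8.43, 8.45 and 8.18 in triple mutant BAT, against 7.78, 7.90 and 7.85 in ob/ob BAT. Triple mutants lie below ob/ob in WAT and above them in BAT with no overlap in either. The lower group of each tissue, triple mutant WAT and ob/ob BAT, has a mean below the highest control. The change passed in WAT (-0.88, SE 0.22, adjusted p = 0.00744) and not in BAT (0.51, adjusted p = 0.135). Without ob/ob WAT array 1, the highest, the WAT change was -0.57 (adjusted p = 0.0069) and the BAT change of 0.51 passed (adjusted p = 0.0126), as it did on the BAT arrays alone (adjusted p = 0.0206). Txnrd3, which also reduces glutathione and is best known from testis, rose by 0.59 in WAT and 0.41 in BAT below the highest control. Some of the enzymes can be set side by side by compartment, a choice and grouping made after their values were seen and not tested. Other members found in the same compartments are not listed. Of the mitochondrial ones Txn2, Txnrd2, Prdx3, Sod2 and Glrx5 rose in WAT and Glrx2 was not called (0.02, adjusted p = 0.919). Among those found in several compartments, Prdx5 and Gstk1 rose and Gpx1 fell (-0.65, adjusted p = 0.00699). Of the cytosolic ones Txn1, Txnrd1, Prdx1 and Txndc17 fell, Prdx2, Sod1 and Glrx3 rose, and Glrx was not called. In BAT the mitochondrial Txnrd2, Prdx3, Sod2 and Glrx5 rose, and Txn2 and Glrx2 were not called. Of the cytosolic ones Prdx2 and Glrx3 rose in BAT, and Txn1 (-0.28), Txnrd1 (0.51), Prdx1 (0.09), Sod1, Txndc17 and Glrx were not called. In the WAT comparison 6 of 10 brown fat and 9 of 10 adipocyte markers rose (17.6% of all genes did). There 15 of 15 macrophage markers fell (16.7% of all genes did), and the part of these markers in these values was not tested.

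**Figure D4:**
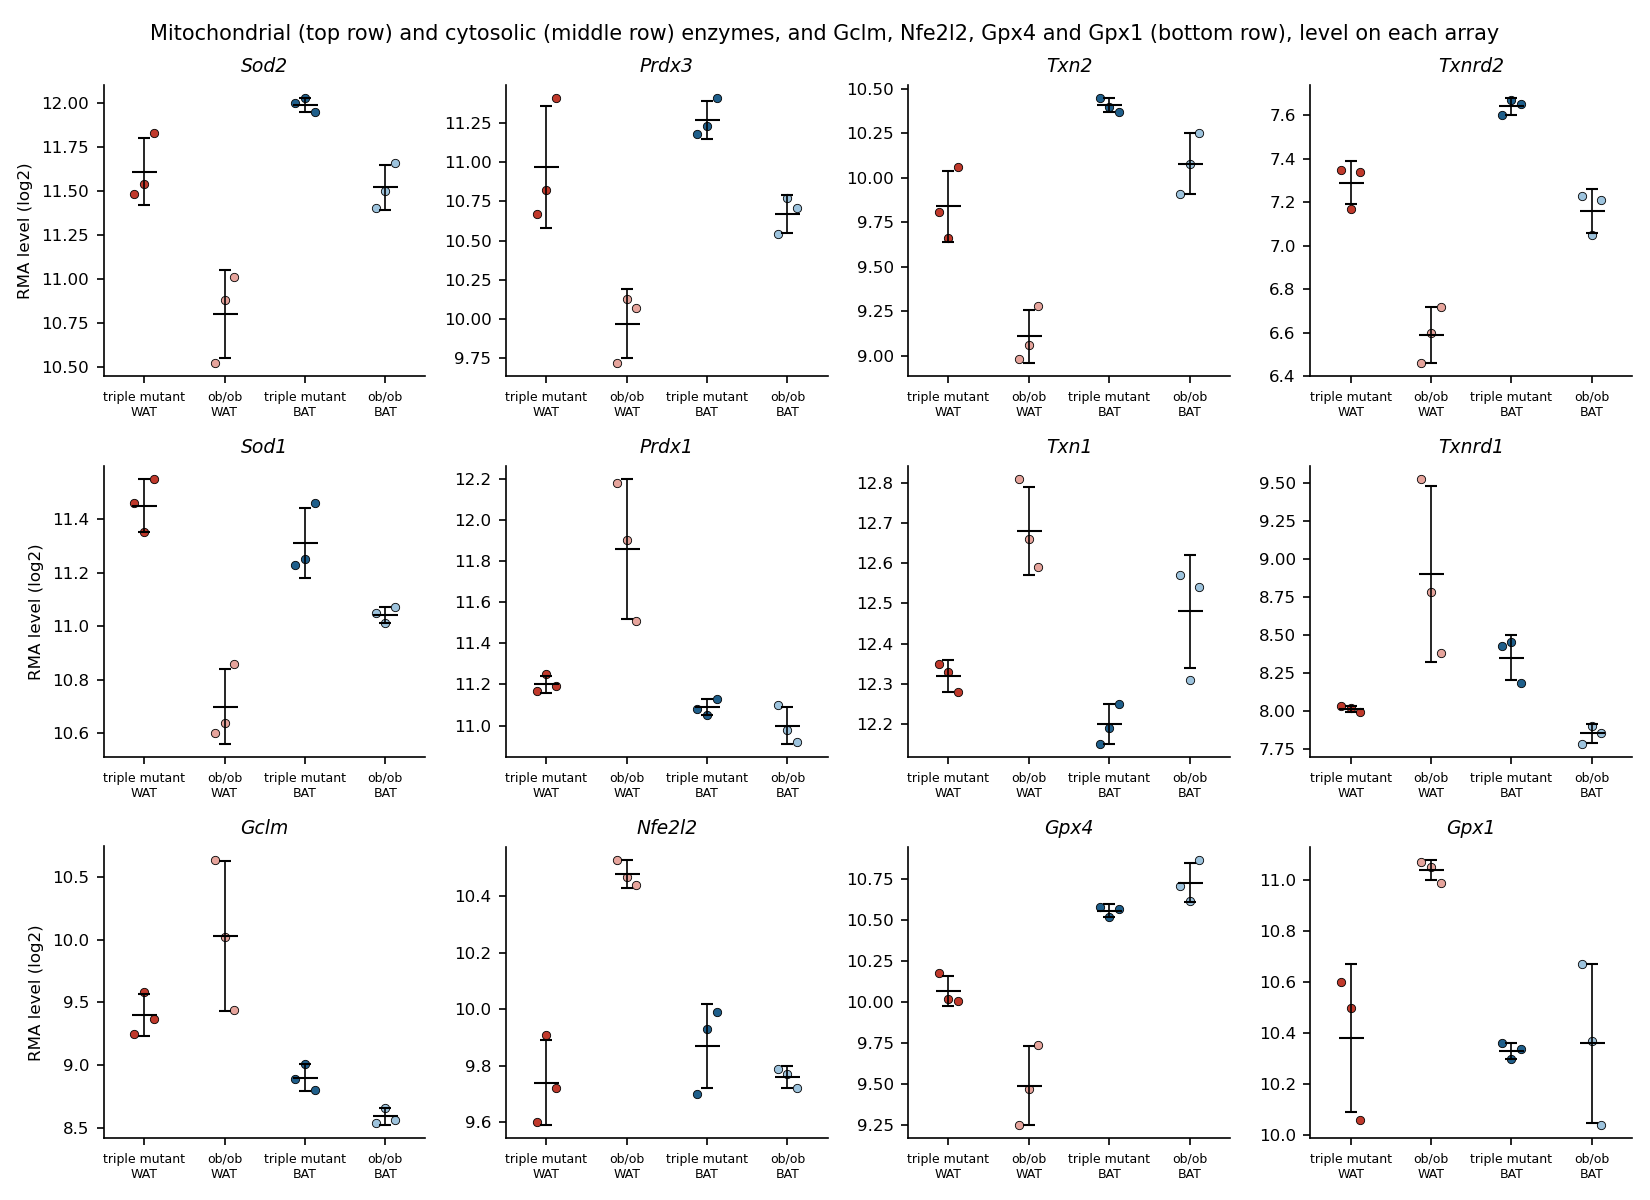
Log2 RMA level (y axis) on each of the 12 arrays (points) in the 4 groups (x axis), with the mean and SD of 3 arrays as bars, for mitochondrial enzymes (top row), cytosolic enzymes (middle row) and Gclm, Nfe2l2, Gpx4 and Gpx1 (bottom row). The mitochondrial enzymes and Sod1 are lowest in ob/ob WAT, whereas Prdx1, Txn1, Txnrd1, Nfe2l2 and Gpx1 have their highest mean there.

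Thioredoxin-like proteins and proteins with a thioredoxin domain made up 13 of the genes, of which 3 were called higher and 2 lower in WAT (median 0.06) and 3 higher in BAT (median 0.03). Of all genes 17.6% were called higher and 16.7% lower in WAT, and 10.4% higher in BAT. Txndc12, a folding enzyme of the endoplasmic reticulum, read 8.69, 8.66 and 8.97 in triple mutant WAT, against 8.22, 8.27 and 8.30 in ob/ob WAT, and 8.59, 8.47 and 8.38 in triple mutant BAT, against 8.0, 7.88 and 7.72 in ob/ob BAT. It was higher on every triple mutant array of each tissue (0.51 in WAT, adjusted p = 0.00256, and 0.61 in BAT, adjusted p = 0.00315). Txnl4b, a spliceosome protein, rose by 0.56 in WAT and 0.46 in BAT, and Txndc15 by 0.36 in WAT. Txndc16, of the endoplasmic reticulum, fell by 0.93 and Txndc17, which reduces disulphides in the cytosol, fell by 0.51 in WAT, and neither was called in BAT. Txndc9 was called in BAT (0.39, adjusted p = 0.0383), through a probe set away from the gene, and its probe set at the gene gave 0.29 (adjusted p = 0.071). The remaining 7, of which Txndc2, Txndc3 and Txndc8 are known from sperm cells, were called in neither tissue.

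Sod2, the superoxide dismutase of mitochondria (chromosome 17, 13200705 to 13232929), read 11.48, 11.54 and 11.83 in triple mutant WAT, against 10.52, 10.88 and 11.01 in ob/ob WAT, and between 11.95 and 12.03 in triple mutant BAT, against 11.40, 11.50 and 11.66 in ob/ob BAT. Every triple mutant array lies above every ob/ob array of its tissue (0.81 in WAT, SE 0.13, adjusted p = 0.00055, beside 0.48 in BAT, SE 0.13, adjusted p = 0.0295). Sod1, the copper and zinc enzyme of the cytosol (chromosome 16, 90220987 to 90226574), read 11.46, 11.35 and 11.55 in triple mutant WAT, against 10.60, 10.64 and 10.86 in ob/ob WAT, with no overlap (0.75, SE 0.10, adjusted p = 9.91e-05). In BAT the arrays of Sod1 do not overlap either, but its change of 0.27 did not pass (adjusted p = 0.0764). Sod3, the secreted enzyme, had 0.37 in WAT (adjusted p = 0.0746) and 0.23 in BAT. Its WAT change was 0.20 without ob/ob WAT array 1 (adjusted p = 0.298), 0.47 without ob/ob WAT array 3 (adjusted p = 0.039), and passed in 3 of 22 alternatives.

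Of the 3 NRF2 genes Nfe2l2 fell, Keap1 rose and Nqo1 did not pass in WAT. None was called in BAT, where limma put none past an unadjusted p under 0.05 either. Over all genes 34.3% were called in either direction in WAT and 17.4% in BAT. Nfe2l2 (chromosome 2, 75513573 to 75542720) read 9.60, 9.91 and 9.72 in triple mutant WAT, against 10.53, 10.47 and 10.44 in ob/ob WAT, and 9.70, 9.93 and 9.99 in triple mutant BAT, against 9.79, 9.77 and 9.72 in ob/ob BAT. Ob/ob WAT stands above the other 3 groups, which overlap one another, and the change was -0.74 in WAT (SE 0.10, adjusted p = 0.000143) and 0.11 in BAT (adjusted p = 0.483). Keap1, its inhibitor, rose by 0.35 in WAT (adjusted p = 0.00817), below the highest control, with 0.17 in BAT (adjusted p = 0.224). Every triple mutant array of Keap1 lies above every ob/ob array of its tissue. Nqo1, a quinone reductase and a classical NRF2 target, lay below the highest control in all groups, at 4.99, 5.34 and 4.85 in triple mutant WAT, against 6.23, 5.16 and 5.34 in ob/ob WAT, and its groups overlap (-0.52, adjusted p = 0.211). Without ob/ob WAT array 1 the change of Nqo1 was -0.19 (adjusted p = 0.661).

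Sequences before the gene starts were searched for the core letters of the antioxidant response element, to which NRF2 binds, since NRF2 targets are among these genes. The motif was TGACNNNGC, read on both strands, in RefSeq windows of 300 bases from 250 before to 50 after each annotated start (build GRCm38.p6). Windows were found for 62 of the 71 genes, not for Gclc, Gsr, Gsta4, Gstt2, Prdx6, Prdx6-ps1, Sod3, Txnl1 and Txnl4a. The motif stood in 12 of the 84 windows of these genes (14.3%), beside 4071 of 32851 windows of all genes (12.4%). Counted by gene, it stood before 12 of the 62 genes (19.4%), beside 3781 of 27025 genes in all (14%). It stood in 4 of 29 that were higher in triple mutant WAT (Gsta3, Gstm5, Gstm7 and Sod1), 4 of 11 that were lower (Gclm, Nfe2l2, Prdx1 and Txnrd1) and 4 of 22 that were not called. A match describes the letters and shows no binding. The 5 genes with a match whose genotype effect also differed between WAT and BAT are shown 5′ to 3′ in the direction of the gene, with the match in capitals. Their windows are chr3:107895604-107895903 on the plus strand for Gstm5, chr16:90220512-90220811 on the plus strand for Sod1, chr4:116685349-116685648 on the plus strand for Prdx1, chr10:82858956-82859255 on the plus strand for Txnrd1 (1 of its 3 windows) and chr2:75704614-75704913 on the minus strand for Nfe2l2.
Gstm5: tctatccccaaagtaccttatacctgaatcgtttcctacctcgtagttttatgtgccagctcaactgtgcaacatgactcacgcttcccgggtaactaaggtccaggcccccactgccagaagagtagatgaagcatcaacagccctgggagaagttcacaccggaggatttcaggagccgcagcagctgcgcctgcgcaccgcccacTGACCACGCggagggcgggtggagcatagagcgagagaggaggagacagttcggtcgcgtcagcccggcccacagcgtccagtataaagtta
Sod1: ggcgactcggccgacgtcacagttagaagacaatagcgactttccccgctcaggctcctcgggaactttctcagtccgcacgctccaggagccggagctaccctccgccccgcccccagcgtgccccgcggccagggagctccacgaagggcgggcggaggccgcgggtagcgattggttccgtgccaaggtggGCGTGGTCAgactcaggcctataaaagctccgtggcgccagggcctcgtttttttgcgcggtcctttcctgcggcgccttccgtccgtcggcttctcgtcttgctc
Prdx1: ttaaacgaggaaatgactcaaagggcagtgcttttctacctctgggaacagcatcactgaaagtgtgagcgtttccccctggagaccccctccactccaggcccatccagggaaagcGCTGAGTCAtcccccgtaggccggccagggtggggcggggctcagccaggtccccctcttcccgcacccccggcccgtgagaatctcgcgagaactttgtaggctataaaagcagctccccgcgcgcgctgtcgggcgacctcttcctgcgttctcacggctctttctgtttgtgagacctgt
Txnrd1: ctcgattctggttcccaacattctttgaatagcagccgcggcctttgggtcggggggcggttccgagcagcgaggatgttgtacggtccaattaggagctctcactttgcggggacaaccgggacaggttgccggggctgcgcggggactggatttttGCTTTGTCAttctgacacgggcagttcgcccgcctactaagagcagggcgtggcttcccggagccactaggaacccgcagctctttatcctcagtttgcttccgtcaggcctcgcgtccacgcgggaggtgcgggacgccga
Nfe2l2: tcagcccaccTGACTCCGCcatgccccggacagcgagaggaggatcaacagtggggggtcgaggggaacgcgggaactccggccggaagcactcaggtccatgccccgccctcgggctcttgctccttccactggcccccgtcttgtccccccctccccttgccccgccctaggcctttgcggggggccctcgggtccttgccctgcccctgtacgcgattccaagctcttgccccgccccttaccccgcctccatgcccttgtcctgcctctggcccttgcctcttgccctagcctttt
The match began 42 bases before the start of Gstm5, 56 before Sod1, 133 before Prdx1, 92 before Txnrd1 and 240 before Nfe2l2, in the forward reading for Gstm5 and Nfe2l2 and in the reverse reading for Sod1, Prdx1 and Txnrd1. Of these genes, Gstm5 and Sod1 rose in WAT and Prdx1, Txnrd1 and Nfe2l2 fell.

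The second comparison asked whether the genotype effect was the same in WAT and BAT, as the effect in WAT minus that in BAT. This difference was called above 0 for 9 genes and below 0 for 3 of the 71, where 5.47% and 8.40% of all genes were (13.9% in all). With array medians subtracted, which moves the difference by 0.11 over all genes, the split was 7 and 9 instead. With the genotype and replicate number as a block, which pairs WAT and BAT arrays, it was 12 and 5. Above 0 were Mgst3 (2.18, SE 0.27, adjusted p = 0.00119), Mgst2 (1.98, SE 0.27, adjusted p = 0.00185) and Gsta4 (1.97, SE 0.30, adjusted p = 0.00306), followed by Gstm5 (1.85), Gstm2 (1.03), Glrx5 (0.91), Gpx4 (0.76), Gstp1 (0.62) and Sod1 (0.48). Below 0 were Txnrd1 (-1.39, SE 0.31, adjusted p = 0.0139), Nfe2l2 (-0.85, SE 0.14, adjusted p = 0.00414) and Prdx1 (-0.75, SE 0.19, adjusted p = 0.0265). Macrophage markers differed in the same contrast, with 11 of 15 below 0 (median -1.71), and so did 4 of 6 mast cell markers (median -1.43) and 1 of 8 fibroblast markers, below 0. Above 0 were 3 of 10 adipocyte markers (median 0.50), 3 of 10 brown fat markers (median 1.48), 4 of 8 endothelial markers (median 0.85), 4 of 7 erythroid markers (median 0.85) and 2 of 5 white fat markers. Their part in the differences was not tested. The calls of Sod1, Prdx1, Gstm5 and Gstp1 were lost under some alternatives, with adjusted p of up to 0.0958, 0.0661, 0.103 and 0.0749. Gstz1, the gene with the largest effect in BAT after Gsta4, had a difference of -0.47 that did not pass (adjusted p = 0.437).

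**Figure D5:**
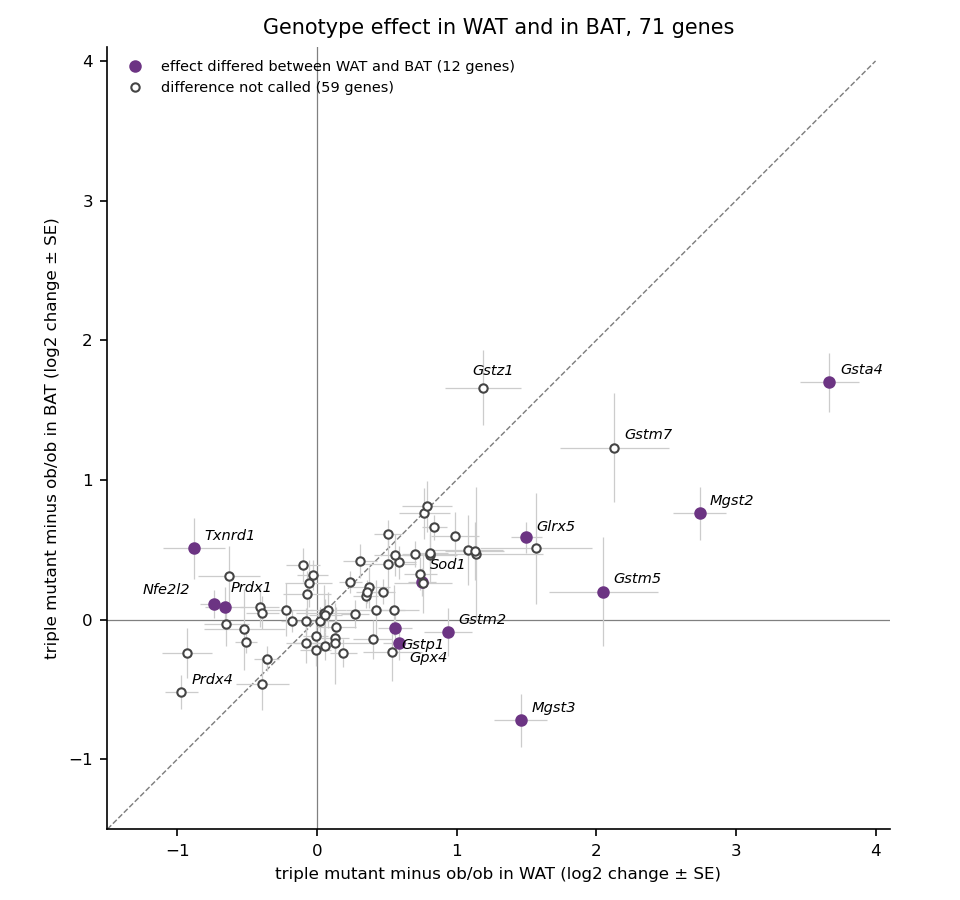
Log2 change (triple mutant minus ob/ob) in WAT (x axis) and BAT (y axis) of the 71 genes, with standard errors as grey bars and equal change as a dashed line. Filled points are the 12 genes whose effect differed between the tissues: Mgst3 lies at 1.46 in WAT and -0.72 in BAT, Txnrd1 at -0.88 and 0.51, and Gsta4 at 3.67 and 1.70.

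The third comparison set BAT against WAT within each genotype. In triple mutants 8 genes were higher in BAT than in WAT and 7 lower, where 6.45% and 7.93% of all genes were (14.4% in all). In ob/ob mice 23 were higher in BAT and 17 lower, where 18.2% and 19.0% of all genes were (37.2% in all). Leaving out single arrays moved the count of genes higher in BAT of triple mutants to between 3 and 12, and it was 3 to 5 without WAT array 1 or 2 or any 1 BAT array of the triple mutants. In triple mutants the smallest p among higher genes belonged to Gss (0.61, adjusted p = 0.00601), Gpx3 (0.97, adjusted p = 0.00909), Txn2 (0.57, adjusted p = 0.0097) and Gpx4 (0.49, adjusted p = 0.0173). Lower in their BAT were Mgst2 (-1.89, adjusted p = 0.000132), Txndc15 (-0.51, adjusted p = 0.00197), Gsta3 (-2.34, adjusted p = 0.0028) and Gstm2 (-0.87, adjusted p = 0.00509). In ob/ob mice Gpx4 (1.25), Gsta4 (1.83), Txn2 (0.97) and Glrx5 (0.82) were higher in BAT, and Gclm (-1.45), Prdx4 (-0.93), Prdx1 (-0.86) and Nfe2l2 (-0.72) lower, with adjusted p between 2.4e-05 and 0.000544. Between the same ob/ob tissues all 15 macrophage markers (median -2.21) and 5 of 6 mast cell markers were lower in BAT. Higher in BAT were 9 of 10 brown fat, 7 of 8 endothelial and 5 of 7 erythroid markers. Of 10 adipocyte markers 5 were higher and 2 lower, of 8 fibroblast markers 1 and 5, and of 5 white fat markers 1 and 2. In triple mutants 2 of 15 macrophage, 2 of 8 fibroblast and 1 of 10 adipocyte markers were lower in BAT. Of 10 brown fat markers 8 were higher and 1 lower, and of 5 white fat markers 1 and 3. Of 6 mast cell markers 1 was higher, and no endothelial or erythroid marker was called. The part of these markers in the tissue differences was not tested. Gpx3 read 11.65, 11.54 and 12.07 in triple mutant BAT, against 10.76, 10.93 and 10.67 in triple mutant WAT, and 11.24, 11.97 and 11.82 in ob/ob BAT, against 10.06, 10.65 and 10.39 in ob/ob WAT. Its BAT and WAT arrays do not overlap in either genotype.

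Genes around these enzymes were taken from lists chosen with earlier results of these data known. Beside the counts of these lists, 17.6% of all genes were called higher and 16.7% lower in WAT, and 10.4% and 6.97% in BAT. Among 11 genes of NADPH supply, on which both systems draw, 7 rose and 1 fell in WAT, and 6 rose and 1 fell in BAT (median log2 changes 0.37 and 0.34). Those with the smallest p in WAT were Taldo1 (0.98) and Tkt (0.77), of the pentose phosphate pathway, and mitochondrial isocitrate dehydrogenase Idh2 (1.03). The 1 that fell was Nnt, the mitochondrial transhydrogenase, named after its values were seen, with 6.64, 6.70 and 6.47 in triple mutant WAT, against 7.87, 8.25 and 7.98 in ob/ob WAT (-1.43, adjusted p = 0.0099), and -1.44 in BAT with overlapping groups. Of 22 genes of glutathione turnover and its precursors 11 rose and 2 fell in WAT, and 9 rose and 2 fell in BAT (medians 0.48 and 0.29). Oplah, which recycles 5-oxoproline, rose by 2.94 in WAT and 1.22 in BAT, Slc25a39, the mitochondrial glutathione carrier, by 1.27 and 0.66, and Anpep, an aminopeptidase that is also a marker of myeloid cells, fell by 3.33 and 1.19.

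Of 17 other NRF2 targets 3 rose and 10 fell in WAT (median -0.48), and 5 rose and none fell in BAT (median -0.04), where limma put 1 lower at an unadjusted p under 0.05. Over all genes 17.6% were called higher and 16.7% lower in WAT, and 10.4% and 6.97% in BAT. The smallest p in WAT were those of Aox1, aldehyde oxidase (1.52), Ftl1, a ferritin chain (-1.09), and Cbr1, carbonyl reductase (0.64). Hmox1, haem oxygenase, which is also expressed by macrophages, read 8.78, 8.96 and 9.04 in triple mutant WAT, against 10.84, 10.12 and 9.96 in ob/ob WAT (-1.38, SE 0.34, adjusted p = 0.00733), and its groups overlap in BAT (-0.60, adjusted p = 0.259). Of 10 NRF2 partners and regulators 1 rose and 3 fell in WAT, the smallest p being those of the repressor Bach1 (-1.19), Nfe2l1 (0.50) and Mafk (-0.43), and 1 rose and 2 fell in BAT.

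Of 14 other genes linked to peroxides and oxidised residues 10 rose and 1 fell in WAT (median 0.62). In BAT 7 rose and none fell (median 0.46), and limma put 1 lower at an unadjusted p under 0.05. Cat, catalase, read 12.77, 12.79 and 12.77 in triple mutant WAT, against 11.90, 11.89 and 11.90 in ob/ob WAT, and 12.37, 12.50 and 12.48 in triple mutant BAT, against 11.74, 11.61 and 11.63 in ob/ob BAT. The arrays of a WAT group differ by at most the second decimal, and the genotypes stand apart in both tissues (0.88 in WAT, adjusted p = 6.05e-06, and 0.79 in BAT, adjusted p = 0.000245). Msrb2 (1.35) and Msra (1.03), which repair oxidised methionine, also rose in WAT. Of 13 genes of NADPH oxidases and xanthine dehydrogenase, which make superoxide, none rose, 8 fell in WAT and 6 in BAT (medians -0.96 and -0.58), and at an unadjusted p under 0.05 limma put 1 higher in WAT and 0 in BAT. Cybb (-3.20) and Ncf4 (-2.42), subunits of the phagocyte oxidase, were among those that fell in WAT, and Cybb is itself 1 of the 15 macrophage markers. Of 9 genes of selenoprotein synthesis 3 rose and 2 fell in WAT, and 3 rose in BAT. Beside the counts in this paragraph, 17.6% of all genes were called higher and 16.7% lower in WAT, and 10.4% and 6.97% in BAT.

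The authors' deposited table of changed genes in WAT listed 29 of the 71 genes, 23 as up and 6 as down, and their table for BAT listed 7, 5 as up and 2 as down. In all, the authors' deposited tables listed 5945 probe sets in WAT (2783 up and 3162 down) and 1164 in BAT (837 up and 327 down). Prdx6, listed by them in WAT, and Txndc17, listed by them in BAT, were not called here in those tissues. In the authors' deposited table for WAT, Gsta4 stood at a log2 fold of 3.44, Mgst2 at 2.44, Mgst3 at 1.44 and Prdx4 at -0.80. In the authors' deposited table for BAT, Gsta4 stood at 1.61 and Mgst3 at -0.64. In the authors' deposited table of terms for genes up in WAT, glutathione metabolic process held 13 probe sets at a fold enrichment of 3.65 (their Benjamini value 0.0133), 8 of the 71 genes among them, and the same term for genes up in BAT held 6 probe sets (their Benjamini value 0.197).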

How the data were processed

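RNA of 12 fat samples was measured on 1-colour Affymetrix gene ST arrays. The authors deposited log2 expression values per probe set made with RMA (background adjustment, quantile normalization and summary), per the submitters' processing notes, which also name limma without a version. The authors' deposited tables of changed genes hold log2 fold changes and fold ratios, and their deposited tables of terms hold p-values and fold enrichment ratios, and none of these entered a test here. Of the authors' deposited table, 12 columns of array values match no sample label and were not used.

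Of 35556 probe sets 28350 are of the main category, of which 25004 name 1 gene, 2 name several and 3344 name none. Where a gene had several (1802 genes), the one with the highest mean was used. limma 3.58.1 in R 4.3.3 fitted 4 group means to the 12 arrays (lmFit, eBayes), and a gene was called at a Benjamini-Hochberg adjusted p under 0.05 over 21651 genes. Every adjusted p is limma's unless the authors' tables are named. The fit was tested on simulated data, and figures used Python 3.11.15 and matplotlib 3.10.9. No filter on dim genes was applied, and the number of arrays limits the precision.

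The 71 genes and all lists were chosen with earlier results of these data known. Named were 18 set members with Cat and Hmox1, and, among called genes, up to 2 per role, direction and genotype comparison with the largest change (groups not overlapping, higher mean at least 6). Added to these were up to 4 per direction with the smallest p in each other comparison, up to 3 of each further list, and other members with their change. Replicate numbers were taken from the labels. Across tissues, same-numbered arrays of a genotype deviated together (r over genes 0.15, 0.21 and 0.19 in triple mutants, 0.22, 0.22 and 0.16 in ob/ob), so comparisons across tissues were also fitted with that number as a block. Symbols were matched to RefSeq, 69 directly and 2 by synonym. NCBIM37 is named for 2980 probe sets in the deposited table. Alternatives were other scalings, filters, probe set rules, variance models and sample sets, a replicate block and leaving out each array. Probe sets at the genes' own place were added after the data were seen.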

Additional observations from a re-analysis of the deposited data

Results flagged for a closer look

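For 12 genes the genotype effect differed between the tissues by limma's test of the difference itself (effect in WAT minus effect in BAT, log2). It was above 0 for Mgst3 (2.18, SE 0.27, adjusted p = 0.00119), Mgst2 (1.98, adjusted p = 0.00185), Gsta4 (1.97, adjusted p = 0.00306), Gstm5 (1.85, adjusted p = 0.0465), Gstm2 (1.03, adjusted p = 0.016), Glrx5 (0.91, adjusted p = 0.00566), Gpx4 (0.76, adjusted p = 0.0133), Gstp1 (0.62, adjusted p = 0.032) and Sod1 (0.48, adjusted p = 0.0374). It was below 0 for Txnrd1 (-1.39, adjusted p = 0.0139), Nfe2l2 (-0.85, adjusted p = 0.00414) and Prdx1 (-0.75, adjusted p = 0.0265). Over all genes 13.9% were called in this contrast. The calls of Sod1, Prdx1, Gstm5 and Gstp1 were lost under some alternatives. With array medians subtracted, 7 genes were called above 0 and 9 below. Groups of 3 arrays are too small for a test of single outlying arrays.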

How the results depend on the processing

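Over 123 named results and 2668 alternative values, 2433 kept direction and side of the threshold, 176 lost the threshold, 29 gained it and 30 changed sign, all of the last in changes that were not called. The count of genes higher in BAT was 10 with quantile normalization over all arrays and 9 within each tissue, and that of lower genes was 4 with quantile normalization over all arrays and 1 with the replicate block. The count of effects lower in WAT than in BAT was 9 with array medians subtracted, 6 with genes limited to those above control and 5 with the replicate block. Leaving out 1 array gave 27 to 34 higher and 8 to 11 lower genes in WAT, 8 to 19 and 1 to 3 in BAT, 6 to 9 and 2 to 5 for the difference of effects, and, for BAT minus WAT, 3 to 12 and 5 to 9 in triple mutants and 19 to 24 and 14 to 18 in ob/ob. The count of lower genes in BAT was 1 without triple mutant BAT array 1 or 3 or ob/ob BAT array 3, and 5 effects were lower in WAT without ob/ob WAT array 3. The cause of these shifts was not tested.

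Sign changes in WAT were those of Gclc (0.00 and 0.00 with the quantile normalizations, -0.25 to 0.14 without single arrays) and Gsr (-0.46 to 0.05 without single arrays, above 0 without ob/ob WAT array 1). In BAT they were those of Gstm3 (-0.07 with probe sets averaged, -0.02 and -0.02 with the quantile normalizations, -0.19 at its own place, -0.06 to 0.14 without single arrays), Nqo1 (0.03, 0.03 and 0.03 under the 3 scalings, -0.34 to 0.15 without single arrays) and, with the quantile normalizations, Gsr (-0.01 and -0.01) and Prdx1 (-0.04 and -0.04). Gpx3 changed sign with the quantile normalizations (-0.05 and -0.06) and ranged over -0.14 to 0.22 without single arrays, and Gstm1 likewise (-0.02 and -0.02, range -0.07 to 0.21). With array medians subtracted Gpx1 was at 0.07 (range without single arrays -0.19 to 0.13) and Gstm2 at 0.01 (range -0.19 to 0.02).

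Across genotypes, same-numbered arrays did not deviate together (r -0.05, 0.07 and 0.11 in WAT, -0.43, -0.24 and -0.23 in BAT), so the number is only a name there. With that replicate block 30 genes were higher and 8 lower in WAT, and 13 and 1 in BAT. With the block that pairs tissues, counts were 12 and 5 for the difference of effects, 8 and 8 for BAT minus WAT in triple mutants and 25 and 17 in ob/ob, and it changed no call of a named gene in these comparisons.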
